A study of Mus musculus with 6 samples.

Results

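The transcripts described here are 43 cell cycle genes, taken as a list of named genes that covers cyclins D1 and D2, inhibitors of cyclin-dependent kinases, entry into S phase, DNA replication and mitosis. All 43 were found, by symbol, among the 23073 genes with a value in the deposited tables. They were followed through RNA-Seq libraries of mouse diaphragm muscle at E14.75, with 2 libraries in each of 3 groups. The groups included *erbB3* wild-type muscle (replicates 5 and 6) and *erbB3* mutant muscle (replicates 1 and 2). Mutant muscle is described in the paper as lacking Schwann cells. The remaining group was muscle of mice that carry *Wnt1-Cre*, the Ribotag allele and wild-type *erbB3* (replicates 1 and 2). Wild-type and mutant libraries were made from RNA of whole muscle, and all libraries by binding to oligo-dT beads. Wnt1-Ribotag libraries were made from RNA that was immunoprecipitated with polysomes, through a hemagglutinin tag on a ribosomal protein in cells with a history of Wnt1-Cre. Each of them came from the diaphragms of a litter that were homogenized together, Cre-negative embryos included, and the neural crest lineage of Wnt1-Cre is wider than Schwann cells. Tagged lineage, immunoprecipitation and a lower amount of RNA all set the Wnt1-Ribotag libraries apart from the others, and these cannot be told apart. No input or mock precipitation is among the libraries, so RNA carried over from untagged cells was not measured. Values of Wnt1-Ribotag muscle need not be those of tagged cells alone.

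Cells that divide copy their DNA in S phase and separate it in mitosis, and the genes for these steps are switched on in turn. D-type cyclins answer to growth signals and, with the E2F factors, open the way into S phase, where the MCM helicase, its partners and the enzymes that make nucleotides are needed. Cyclin B with its kinase, the spindle motors, the checkpoint kinases and the ubiquitin ligase that ends mitosis act later, so that transcripts of replication and of mitosis report on different stretches of the cycle. In fetal muscle, myoblasts, connective tissue cells and Schwann cell precursors divide, whereas the nuclei of muscle fibers have left the cycle.

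Depth, calculated from the value that stands for 1 read in genes without reads, came to 100178863 and 229922644 reads for wild-type 5 and 6, 130755581 and 230216660 reads for mutant 1 and 2, and 122770245 and 171266729 reads for Wnt1-Ribotag 1 and 2. All 43 members lay above that floor in all 6 libraries, and all passed the filter on low values in every comparison. Over 14320 genes, replicates differed by a median log2 value of 0.13 (wild-type), 0.19 (mutant) and 0.39 (Wnt1-Ribotag). *Erbb3*, the gene inactivated in the mutant, was measured at 16.5 and 15.8 RPKM (reads normalized to gene length and depth) in wild-type 5 and 6, and at 21.5 and 11.9 RPKM in mutant 1 and 2. These values overlap, so the transcript does not separate the genotypes, which are those of the labels. *Sox10*, a transcription factor of the Schwann cell lineage, stood at 2.89 and 2.16 RPKM in wild-type 5 and 6, at 0.00854 and 0.0178 RPKM in mutant 1 and 2, and at 15.5 and 32.2 RPKM in Wnt1-Ribotag 1 and 2.

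In mutant muscle, most mitosis genes lay slightly above wild-type and replication genes lay close to it, whereas *Ccnd1* and *Ccnd2* were lower. In Wnt1-Ribotag muscle, most replication genes and most mitosis genes lay below both other groups, and *Ccnd1*, *Ccnd2*, *E2f1* and the replication gene *Gins2* lay above them. In these bulk libraries, fewer cells of a type and less RNA per cell cannot be told apart. Genes were called by limma on log2(RPKM + 0.5), at a Benjamini-Hochberg adjusted p of 0.05 over all genes tested. In mutant vs. wild-type muscle, 0 of 43 members were called, beside 24 of 14052 genes (0.171%), and 4 members had an unadjusted p under 0.05, beside 1691 genes (12%). In Wnt1-Ribotag vs. wild-type muscle, 0 of 43 members were called, beside 1 of 14418 genes (0.00694%), and 22 members had an unadjusted p under 0.05, beside 2813 genes (19.5%). In Wnt1-Ribotag vs. mutant muscle, 1 of 43 members was called, beside 171 of 14325 genes (1.19%), and 20 members had an unadjusted p under 0.05, beside 2758 genes (19.3%). The member called was *Ccnd1*. The first and the second comparison share the wild-type libraries, the second and the third share the Wnt1-Ribotag libraries, and the first and the third share the mutant libraries. With 2 libraries in a group, counts of members depended on single Wnt1-Ribotag libraries. Without Wnt1-Ribotag 1 or 2, limma called more members in both comparisons of Wnt1-Ribotag muscle. These fits let the lone library vary like the others. Counts of all genes moved too. In mutant vs. wild-type muscle limma called 10 genes without mutant 2, 106 without wild-type 5 and 90 without wild-type 6. Against wild-type, Wnt1-Ribotag muscle had 26 and 67 genes called without wild-type 5 and 6, and 4482 and 5965 without Wnt1-Ribotag 1 and 2. Against mutant muscle, it had 112 genes called without mutant 2, and 2538 and 3672 without Wnt1-Ribotag 1 and 2. Members were chosen with earlier results of these data known, so a direction kept across these fits is no sign of stability.

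A second measure was whether a gene was higher, or lower, in all 4 pairs of libraries of a comparison. In mutant vs. wild-type muscle, 17 of 43 members were higher in all 4 pairs, beside 12.7% of all genes tested, and 6 were lower, beside 37.4%. The log2 fold changes of all genes in this comparison had their median at -0.10, which moved to 0.00 with median-ratio scaling of the libraries. With that scaling, which was added after the data were seen for this measure, 20 members were higher in all 4 pairs, beside 23.8% of genes, and 2 were lower, beside 23.2%. Of the 43 members, 30 were lower in Wnt1-Ribotag than in wild-type muscle in all 4 pairs, beside 31% of genes, and 5 were higher, beside 23.3%. Against mutant muscle, 36 members were lower in Wnt1-Ribotag muscle, beside 24.4% of genes, and 4 were higher, beside 29.7%.

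**Figure D1:**
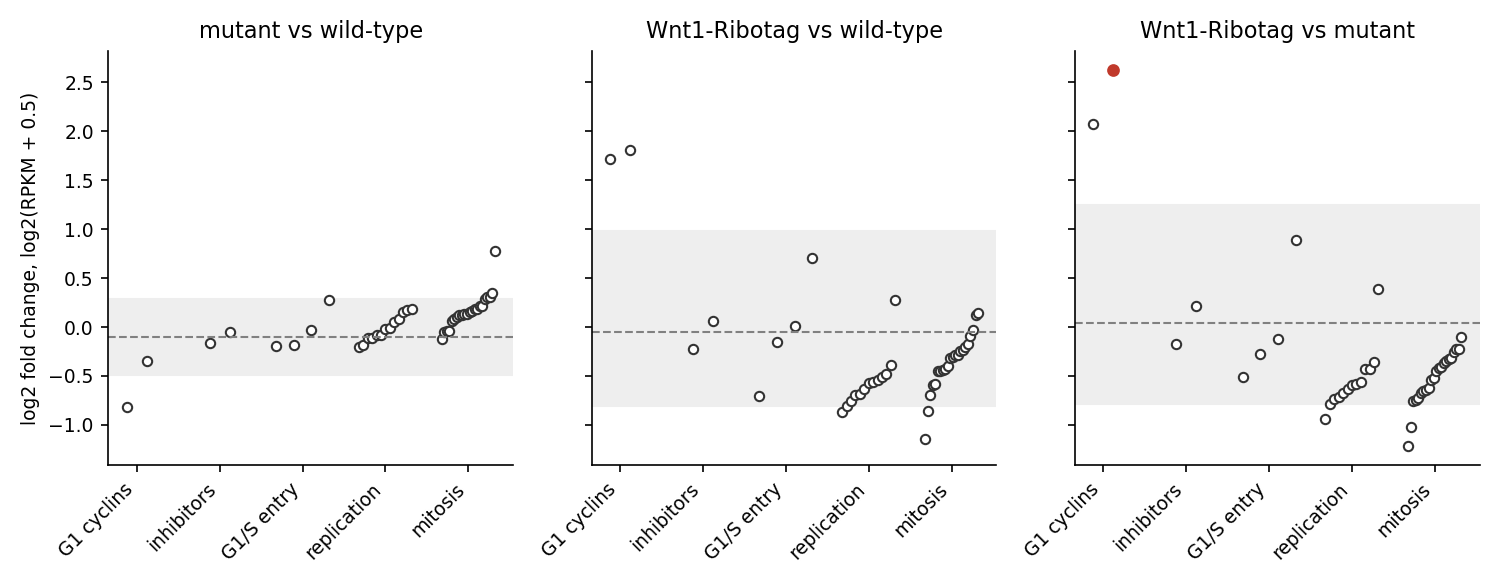
Log2 fold change of each of the 43 members on the log2(RPKM + 0.5) scale, by class, in the 3 comparisons of 2 libraries with 2; the dashed line is the median of all genes tested, the grey band spans their 5th to 95th percentile, and the filled point is the member called by limma. The 13 replication and 22 mitosis members have medians of -0.02 and 0.14 in mutant vs. wild-type, -0.57 and -0.31 in Wnt1-Ribotag vs. wild-type, and -0.59 and -0.48 in Wnt1-Ribotag vs. mutant muscle.

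*Ccnd1* and *Ccnd2* encode D-type cyclins, which activate Cdk4 and Cdk6 in G1, and had the largest absolute log2 fold changes of the 43 members in both comparisons of Wnt1-Ribotag muscle. *Ccnd1* (ENSMUSG00000070348) was measured at 17.8 and 27.5 RPKM in wild-type 5 and 6, at 11.4 and 13.3 RPKM in mutant 1 and 2, and at 52.4 and 118 RPKM in Wnt1-Ribotag 1 and 2. The 3 groups did not overlap, with mutant muscle lowest and Wnt1-Ribotag muscle highest. *Ccnd1* rose in Wnt1-Ribotag vs. mutant muscle by a log2 fold change of 2.63 ± 0.39 (SE; limma adjusted p = 0.0374; higher in all 4 pairs). This call was kept in fits without any 1 of the 4 libraries, and was lost without the filter on low values (adjusted p = 0.132), with quantile normalization (adjusted p = 0.0648) and without a variance trend (adjusted p = 0.0526). The log2 fold change of *Ccnd1* was 1.81 ± 0.44 in Wnt1-Ribotag vs. wild-type muscle (limma adjusted p = 0.18) and -0.82 ± 0.21 in mutant vs. wild-type muscle (limma adjusted p = 0.228), or -0.72 relative to the median of all genes. The exons annotated for *Ccnd1* share 23.4% of their bases with *LTO1* on the opposite strand. *LTO1* stood at 7.73 and 9.56 RPKM in wild-type 5 and 6, at 7.02 and 7.29 RPKM in mutant 1 and 2, and at 21.1 and 34.6 RPKM in Wnt1-Ribotag 1 and 2. It was also called in Wnt1-Ribotag vs. mutant muscle, with a log2 fold change of 1.85 ± 0.29 (limma adjusted p = 0.0444). The ratio of *Ccnd1* to *LTO1* was between 1.63 (mutant 1) and 3.42 (Wnt1-Ribotag 2). Use of strand in the counting is not given in the sources used here, so reads of the shared bases cannot be told apart.

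*Ccnd2* (ENSMUSG00000000184) was measured at 31 and 35 RPKM in wild-type 5 and 6, at 25.9 and 25.6 RPKM in mutant 1 and 2, and at 220 and 54.3 RPKM in Wnt1-Ribotag 1 and 2. The groups again did not overlap, but the Wnt1-Ribotag libraries lay far from each other. Against wild-type, log2 differences of single pairs ran from 0.63 to 2.81 for *Ccnd2*, and from -1.47 to -0.80 for *Plk1*. The rank of *Ccnd2* among the members in that comparison thus depended on Wnt1-Ribotag 1. Which of these 2 cyclins was more abundant also differed between the Wnt1-Ribotag libraries, with ratios of *Ccnd1* to *Ccnd2* of 0.238 (replicate 1) and 2.18 (replicate 2). In wild-type 5 and 6 this ratio was 0.575 and 0.787, and in mutant 1 and 2 it was 0.441 and 0.52. The log2 fold change of *Ccnd2* was 1.72 ± 0.65 in Wnt1-Ribotag vs. wild-type (limma adjusted p = 0.246), 2.07 ± 0.59 in Wnt1-Ribotag vs. mutant (limma adjusted p = 0.155) and -0.35 ± 0.13 in mutant vs. wild-type muscle (limma adjusted p = 0.391; -0.25 relative to the median of all genes). *Ccnd3*, a D-type cyclin outside the 43, did not follow them, at 225 and 196 RPKM in wild-type 5 and 6, 201 and 182 RPKM in mutant 1 and 2, and 195 and 160 RPKM in Wnt1-Ribotag 1 and 2. It was the most abundant of the 3 in every library except Wnt1-Ribotag 1, and was lower in Wnt1-Ribotag than in wild-type muscle in all 4 pairs, with a log2 fold change of -0.25.

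*Cdkn1a* and *Cdkn1b*, which encode the inhibitors p21 and p27 of cyclin-dependent kinases, did not follow *Ccnd1* and *Ccnd2*. *Cdkn1a* (ENSMUSG00000023067) was measured at 73.6 and 69.2 RPKM in wild-type 5 and 6, at 89.9 and 52.7 RPKM in mutant 1 and 2, and at 63 and 59.3 RPKM in Wnt1-Ribotag 1 and 2. The mutant libraries lay on either side of both other groups, and against wild-type muscle the mutant log2 fold change was -0.05 ± 0.23 (limma adjusted p = 0.932). *Cdkn1b* (ENSMUSG00000003031) was measured at 15.6 and 17.7 RPKM in wild-type 5 and 6, at 16.2 and 13.6 RPKM in mutant 1 and 2, and at 16.1 and 18.7 RPKM in Wnt1-Ribotag 1 and 2. All 3 groups overlapped for *Cdkn1b*. In the comparisons of Wnt1-Ribotag muscle, log2 fold changes of the inhibitors lay between -0.22 and 0.22.

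Genes for entry into S phase went different ways. *E2f1* (ENSMUSG00000027490), a transcription factor that drives genes of DNA replication, was measured at 11.9 and 11.8 RPKM in wild-type 5 and 6, at 11.7 and 9.21 RPKM in mutant 1 and 2, and at 20.7 and 18.7 RPKM in Wnt1-Ribotag 1 and 2. Both Wnt1-Ribotag libraries lay above the other 4, with log2 fold changes of 0.71 ± 0.17 against wild-type (limma adjusted p = 0.178) and 0.89 ± 0.23 against mutant muscle (limma adjusted p = 0.134). *Ccne1* (ENSMUSG00000002068), the cyclin E1 that activates Cdk2, was measured at 76.6 and 62.5 RPKM in wild-type 5 and 6, at 56.7 and 64.3 RPKM in mutant 1 and 2, and at 38.1 and 47 RPKM in Wnt1-Ribotag 1 and 2. Here both Wnt1-Ribotag libraries were lowest, opposite to *E2f1*, with a log2 fold change of -0.70 ± 0.20 against wild-type muscle (limma adjusted p = 0.196). *Cdk2* (ENSMUSG00000025358) was near level, at 45.6 and 46.8 RPKM in wild-type 5 and 6, 45.6 and 45 RPKM in mutant 1 and 2, and 42.1 and 41.3 RPKM in Wnt1-Ribotag 1 and 2. The fourth gene of this class, *Ccne2*, had log2 fold changes of 0.28 in mutant vs. wild-type and 0.01 in Wnt1-Ribotag vs. wild-type muscle. The ratio of *Ccnd1* to *Ccne1* was between 0.201 and 0.441 in the wild-type and mutant libraries, and 1.38 and 2.52 in Wnt1-Ribotag 1 and 2.

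**Figure D2:**
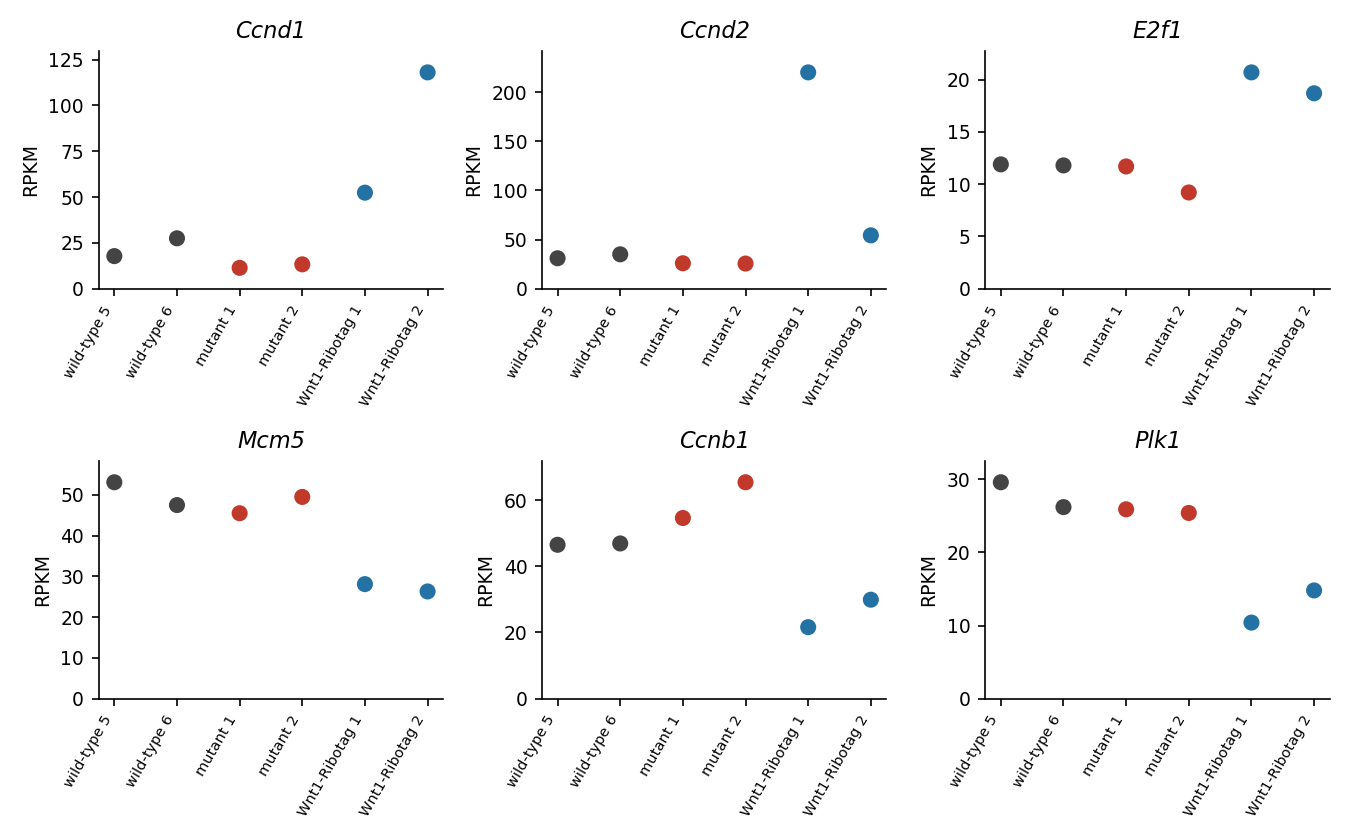
RPKM of 6 members in each of the 6 libraries, 1 point per library, with the vertical axis from 0. *Ccnd1*, *Ccnd2* and *E2f1* are highest in the 2 Wnt1-Ribotag libraries, and *Mcm5*, *Ccnb1* and *Plk1* are lowest there.

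Replication genes kept close to wild-type values in mutant muscle. *Pcna* (ENSMUSG00000027342), the sliding clamp of DNA polymerases, was measured at 143 and 128 RPKM in wild-type 5 and 6, at 133 and 169 RPKM in mutant 1 and 2, and at 81.1 and 103 RPKM in Wnt1-Ribotag 1 and 2. *Rrm1* (ENSMUSG00000030978), the large subunit of ribonucleotide reductase, was measured at 54.8 and 55.1 RPKM in wild-type 5 and 6, at 56.8 and 68.6 RPKM in mutant 1 and 2, and at 28.7 and 36.3 RPKM in Wnt1-Ribotag 1 and 2. For both genes the Wnt1-Ribotag libraries were lowest, and mutant 2 was highest. The log2 fold change of *Rrm1* was 0.18 ± 0.14 in mutant vs. wild-type (limma adjusted p = 0.562) and -0.76 ± 0.18 in Wnt1-Ribotag vs. wild-type muscle (limma adjusted p = 0.18). *Pcna* had log2 fold changes of 0.15 ± 0.17 (limma adjusted p = 0.682) and -0.56 ± 0.19 (limma adjusted p = 0.224) in the same comparisons. Of *Pcna*, 2 annotated pseudogenes are known by name, and of *Tyms*, *Ccnb1* and *Ccnb2* 1 each, so that reads may be split between copies.

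*Mcm6* (ENSMUSG00000026355) and *Mcm5* (ENSMUSG00000005410) encode subunits of the MCM helicase, which unwinds DNA at replication origins. *Mcm6* was measured at 65.5 and 57.1 RPKM in wild-type 5 and 6, at 55.9 and 59.9 RPKM in mutant 1 and 2, and at 38 and 48.4 RPKM in Wnt1-Ribotag 1 and 2. *Mcm5* stood at 53.1 and 47.5 RPKM in wild-type 5 and 6, at 45.5 and 49.5 RPKM in mutant 1 and 2, and at 28.1 and 26.3 RPKM in Wnt1-Ribotag 1 and 2. Wild-type and mutant libraries overlapped for both, and the Wnt1-Ribotag libraries lay below all of them. The log2 fold change of *Mcm5* in Wnt1-Ribotag vs. wild-type muscle, -0.87 ± 0.16, had the smallest adjusted p of the members there (limma, 0.159). All 6 *Mcm* members lay lower in the 4 pairs of this comparison, beside 31% of all genes, with log2 fold changes from -0.87 (*Mcm5*) to -0.51 (*Mcm6*). In mutant vs. wild-type muscle the 6 ranged from -0.20 (*Mcm4*) to -0.01 (*Mcm7*), which is -0.10 to 0.09 relative to the median of all genes.

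Over the 13 replication members, the median log2 fold change of mutant against wild-type muscle was -0.02, or 0.08 relative to the median of all genes, with single genes from -0.20 to 0.18. This median was 0.00 without mutant 1, -0.13 without mutant 2, 0.02 without wild-type 5 and -0.06 without wild-type 6. Only *Rrm1* was higher in all 4 pairs, beside 12.7% of all genes, and *Mcm2* and *Mcm4* were lower, beside 37.4%. With median-ratio scaling, 2 members were higher in all 4 pairs, beside 23.8% of all genes, and 0 were lower, beside 23.2%. Of the 13 members, 11 then lay above 0 where 5 had before. Against wild-type, the Wnt1-Ribotag median was -0.57, a fold of 0.674, and 12 of 13 members were lower in all 4 pairs, beside 31% of all genes. Against mutant muscle, it was -0.59, and the same count of members was lower, beside 24.4% of all genes. The exception in both comparisons was *Gins2*, a subunit of the GINS complex at the replication fork, with log2 fold changes of 0.28 and 0.39. Annotated exons of *Gins2* share 67.3% of their bases with *Gse1* on the opposite strand, for which log2 fold changes were 0.41 and 0.96. *Cdc45*, a partner of GINS in the same helicase, was lower in both, by log2 fold changes of -0.48 and -0.56. The ratio of *Cdc45* to *Gins2* was between 0.821 and 0.977 in the wild-type and mutant libraries, and 0.459 and 0.507 in Wnt1-Ribotag 1 and 2. The remaining members, *Mcm2*, *Mcm3*, *Mcm4*, *Mcm7*, *Cdc6*, *Rrm2* and *Tyms*, lay between -0.81 and -0.39 in Wnt1-Ribotag vs. wild-type and between -0.74 and -0.36 in Wnt1-Ribotag vs. mutant muscle.

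Among mitosis genes, *Ccnb1*, *Top2a* and *Nusap1* ordered the groups alike. *Ccnb1* (ENSMUSG00000041431), the cyclin B1 that drives entry into mitosis with Cdk1, was measured at 46.5 and 46.9 RPKM in wild-type 5 and 6, at 54.6 and 65.4 RPKM in mutant 1 and 2, and at 21.6 and 29.9 RPKM in Wnt1-Ribotag 1 and 2. The groups did not overlap, with mutant libraries highest and Wnt1-Ribotag libraries lowest. Its log2 fold change was 0.35 ± 0.14 in mutant vs. wild-type (limma adjusted p = 0.399; 0.46 relative to the median of all genes) and -0.86 ± 0.21 in Wnt1-Ribotag vs. wild-type muscle (limma adjusted p = 0.18). In Wnt1-Ribotag vs. mutant muscle it was -1.22 ± 0.25 (limma adjusted p = 0.091). *Top2a* (ENSMUSG00000020914), the topoisomerase that untangles sister chromatids, was measured at 66.3 and 69.8 RPKM in wild-type 5 and 6, at 77.4 and 91.7 RPKM in mutant 1 and 2, and at 44.9 and 54.9 RPKM in Wnt1-Ribotag 1 and 2. *Nusap1* (ENSMUSG00000027306), a protein of spindle microtubules, was measured at 21.9 and 22 RPKM in wild-type 5 and 6, at 25.5 and 29.3 RPKM in mutant 1 and 2, and at 16.5 and 21 RPKM in Wnt1-Ribotag 1 and 2. In both genes the groups stood in the order seen for *Ccnb1*, without overlap. In mutant vs. wild-type muscle, log2 fold changes were 0.31 ± 0.14 for *Top2a* (limma adjusted p = 0.424) and 0.31 ± 0.13 for *Nusap1* (limma adjusted p = 0.415), and each was 0.41 relative to the median of all genes.

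*Plk1* (ENSMUSG00000030867), a kinase of spindle assembly and mitotic exit, showed another pattern. It was measured at 29.6 and 26.2 RPKM in wild-type 5 and 6, at 25.9 and 25.4 RPKM in mutant 1 and 2, at 10.4 RPKM in Wnt1-Ribotag 1, and at a mean of 12.6 RPKM (SD 3.12) over both Wnt1-Ribotag libraries. Mutant libraries lay just below wild-type, with a log2 fold change of -0.12 ± 0.13 (limma adjusted p = 0.686), which was 0.00 with median-ratio scaling. In Wnt1-Ribotag vs. wild-type muscle, *Plk1* had the lowest log2 fold change of the 43 members, -1.14 ± 0.23 (limma adjusted p = 0.17). *Birc5* (ENSMUSG00000017716), or survivin, of the chromosomal passenger complex, was measured at 80.9 and 79 RPKM in wild-type 5 and 6, at 77.6 and 106 RPKM in mutant 1 and 2, and at 63.4 and 96.2 RPKM in Wnt1-Ribotag 1 and 2. All groups overlapped for *Birc5*, although *Aurkb*, the kinase of the same complex, was lower in Wnt1-Ribotag than in wild-type muscle in all 4 pairs with a log2 fold change of -0.44.

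*Ube2c* (ENSMUSG00000001403), the ubiquitin-conjugating enzyme that works with the anaphase-promoting complex, had the highest mean RPKM of the 43 members, 156. It was measured at 135 and 110 RPKM in wild-type 5 and 6, at 224 and 197 RPKM in mutant 1 and 2, and at 128 and 142 RPKM in Wnt1-Ribotag 1 and 2. The mutant libraries lay above all others, with a log2 fold change of 0.78 ± 0.16 against wild-type (limma adjusted p = 0.137; 0.89 relative to the median of all genes). No other mitosis member had a log2 fold change above 0.35 in this comparison. Annotated exons of *Ube2c* share 592 of 2600 bases, 22.8%, with *Tnnc2* on the opposite strand, the fast skeletal troponin C of muscle fibers. *Tnnc2* stood at 345 and 268 RPKM in wild-type 5 and 6, at 646 and 560 RPKM in mutant 1 and 2, and at 320 and 371 RPKM in Wnt1-Ribotag 1 and 2. Over the 6 libraries the ratio of *Ube2c* to *Tnnc2* stayed between 0.347 and 0.41. Reads of the shared bases cannot be told apart without strand, and values of *Ube2c* are therefore uncertain.

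Over the 22 mitosis members, mutant muscle had a median log2 fold change of 0.14 against wild-type, or 0.24 relative to the median of all genes, and of 0.09 without mutant 2. Here 15 of 22 members were higher in all 4 pairs, beside 12.7% of all genes, and *Plk1* was lower, beside 37.4%. With median-ratio scaling 16 were higher, beside 23.8% of all genes, and 0 were lower, beside 23.2%. An unadjusted limma p under 0.05 was found for 2 of the 22 members, *Ccnb1* and *Ube2c*, beside 12% of all genes. The members *Mki67*, *Cdc20* and *Aurkb* had log2 fold changes of -0.05, -0.04 and -0.04, and overlapped, and with median-ratio scaling all 22 members lay above 0. Against wild-type, the Wnt1-Ribotag median was -0.31 (-0.16 without Wnt1-Ribotag 1 and -0.49 without Wnt1-Ribotag 2). Of the 22 members, 15 were lower in all 4 pairs of that comparison, beside 31% of all genes. Only *Cenpe*, a kinetochore motor, was higher in all 4 pairs, beside 23.3% of all genes, with a log2 fold change of 0.12. Against mutant muscle the Wnt1-Ribotag median was -0.48, and 21 of 22 members were lower in all 4 pairs, beside 24.4% of all genes. *Mki67*, the gene of the Ki-67 antigen, had a log2 fold change of -0.32 in Wnt1-Ribotag vs. wild-type and of -0.26 in Wnt1-Ribotag vs. mutant muscle.

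Replication and mitosis genes were then set against each other as mean log2(RPKM + 0.5) over the members of each class. For replication this mean was 5.30 and 5.21 in wild-type 5 and 6, 5.15 and 5.33 in mutant 1 and 2, and 4.61 and 4.79 in Wnt1-Ribotag 1 and 2. Wild-type and mutant libraries overlapped, and both Wnt1-Ribotag libraries lay below. For mitosis it was 5.05 and 5.04 in wild-type 5 and 6, 5.17 and 5.25 in mutant 1 and 2, and 4.52 and 4.85 in Wnt1-Ribotag 1 and 2. Here both mutant libraries lay above both wild-type libraries (SD 0.01 in wild-type and 0.06 in mutant muscle, n = 2 each). An SD of 2 libraries measures spread poorly, and this order was not tested. Mitosis minus replication, which depends little on the scaling of a library, was -0.25 and -0.16 in wild-type 5 and 6, 0.02 and -0.08 in mutant 1 and 2, and -0.09 and 0.07 in Wnt1-Ribotag 1 and 2. All 4 mutant and Wnt1-Ribotag libraries lay above both wild-type libraries in this difference, and mutant and Wnt1-Ribotag libraries overlapped. The difference was not tested.

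**Figure D3:**
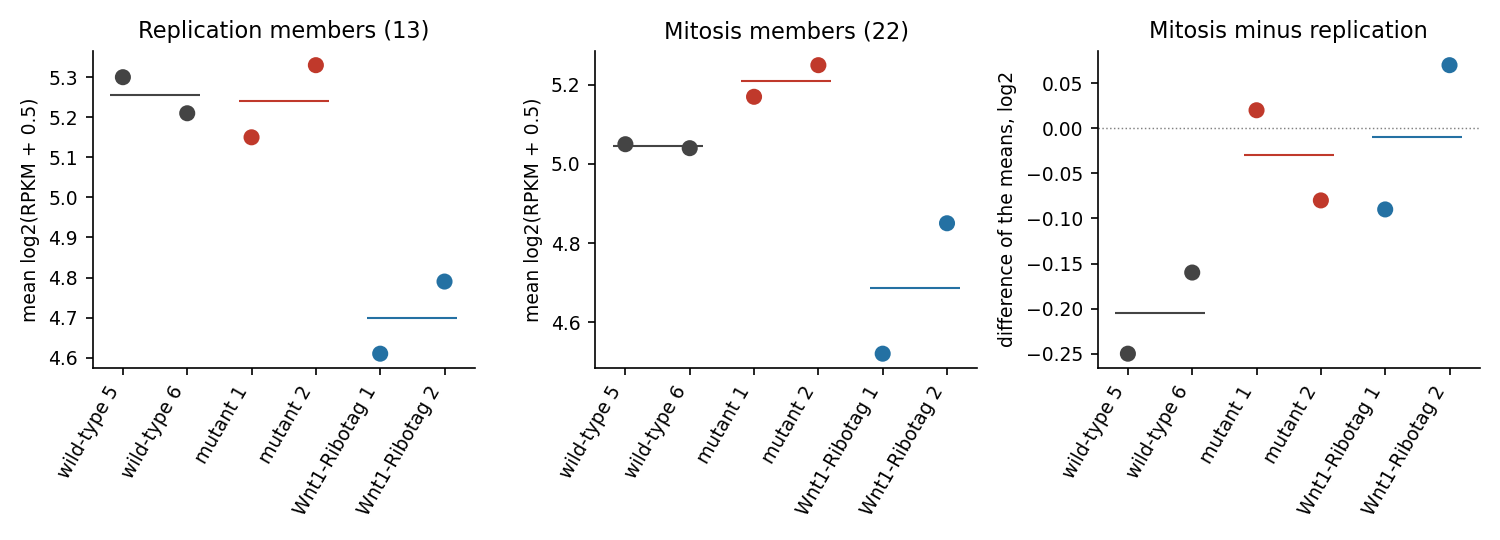
Mean log2(RPKM + 0.5) of the 13 replication members and of the 22 mitosis members, and their difference, in each library; points are libraries and lines are means of the 2 libraries of a group. Wnt1-Ribotag libraries are lowest in both classes, and mitosis minus replication is lowest in the wild-type libraries.

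Members with exons shared with another gene were left out in an alternative added after the data were seen, which removed *Ccnd1*, *Gins2*, *Kif20a* and *Ube2c*, each with over 20% shared bases. Mitosis minus replication was then -0.45 and -0.35 in wild-type 5 and 6, -0.21 and -0.31 in mutant 1 and 2, and -0.23 and -0.06 in Wnt1-Ribotag 1 and 2. The wild-type libraries remained the lowest.

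Further genes of replication and mitosis, outside the 43, had medians closer to 0 than the members in both comparisons of Wnt1-Ribotag muscle, and not in mutant vs. wild-type muscle. Of 50 other replication genes, 69 other mitosis genes and 21 tested genes of G1 and its inhibitors, limma called 0 in each of the 3 comparisons. At an unadjusted p under 0.05 there were 0, 6 and 1 genes in mutant vs. wild-type (12% of all genes tested), 11, 7 and 6 in Wnt1-Ribotag vs. wild-type (19.5% of all genes), and 5, 13 and 4 in Wnt1-Ribotag vs. mutant muscle (19.3% of all genes), so that most of these counts lay near or below the share of all genes. Median log2 fold changes of other replication and other mitosis genes were 0.06 and 0.15 in mutant vs. wild-type (0.16 and 0.25 relative to the median of all genes), -0.22 and -0.20 in Wnt1-Ribotag vs. wild-type, and -0.27 and -0.31 in Wnt1-Ribotag vs. mutant muscle. Other mitosis minus other replication genes was -0.20 and -0.19 in wild-type 5 and 6, -0.09 and -0.16 in mutant 1 and 2, and -0.09 and -0.15 in Wnt1-Ribotag 1 and 2. The wild-type libraries were again lowest, by a smaller margin than for the members.

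Of the other mitosis genes, *Ttk*, a spindle checkpoint kinase, was measured at 10.9 and 11.4 RPKM in wild-type 5 and 6 and at 14.4 and 16.2 RPKM in mutant 1 and 2 (log2 fold change 0.44 ± 0.14; limma adjusted p = 0.333). *Nuf2*, of the kinetochore, had a log2 fold change of 0.43 ± 0.15 (limma adjusted p = 0.378), and *Pttg1*, or securin, one of -0.46 ± 0.15 (limma adjusted p = 0.337). In the same comparison *Orc5*, *Prim2* and *Chaf1a* led the other replication genes, with 0.34, 0.30 and -0.29, and *Cdk6*, *Cdkn2c* and *Ccng1* led the G1 genes, with -0.48, 0.36 and 0.32. In Wnt1-Ribotag vs. wild-type muscle, *Pold1*, a subunit of DNA polymerase delta, was measured at 19.5 and 17.4 RPKM in wild-type 5 and 6 and at 10.1 RPKM in both Wnt1-Ribotag libraries (log2 fold change -0.83 ± 0.17; limma adjusted p = 0.17). *Espl1*, or separase, which splits sister chromatids, had a log2 fold change of -0.86 ± 0.19 (limma adjusted p = 0.173). It was followed by *Kif18b* and *Ndc80* with -0.77 and -0.73, and *Dscc1* and *Pold2* followed *Pold1* with -0.71 and -0.69. Of the G1 genes, *Cdk6*, *Gadd45a* and *Ccng1* had log2 fold changes of -0.84, 0.82 and 0.81. In Wnt1-Ribotag vs. mutant muscle, the leading genes were *Pole2*, *Orc3* and *Dscc1* (-0.87, -0.84 and -0.81), *Ndc80*, *Shcbp1* and *Anln* (-0.99, -0.89 and -0.80), and *Gadd45a*, *Cdkn1c* and *Cdk4* (1.09, -0.79 and -0.64). *Cdkn1c*, which encodes the inhibitor p57, was the most abundant gene of this list, at 1131 and 983 RPKM in wild-type 5 and 6, 1338 and 1108 RPKM in mutant 1 and 2, and 647 and 761 RPKM in Wnt1-Ribotag 1 and 2.

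Promoters of the members differ by class in sequence. RefSeq promoters (GRCm38.p6, 250 bases before to 50 after the start) matched 34 of 43 members, and were searched on both strands for CCAAT, for TTTGAA, a core of the CHR element of mitotic genes, and for TTTCCCGC and TTTGGCGC, forms of the E2F element. TTTGAA was found in 13 of 18 mitosis members (72.2%) and 2 of 11 replication members (18.2%), beside 20.2% of all 27025 genes in the table. CCAAT was found in 16 of 18 mitosis members (88.9%) and 9 of 11 replication members (81.8%), beside 41.1% of all genes. Either E2F form was found in 0 of 18 mitosis members and in 5 of 11 replication members (45.5%), beside 1.8% of all genes. Matches of different motifs overlapped in 0 of 36 member promoters. A match describes the sequence only, and binding was not measured. The promoters of *Mcm5* (chr8:75109259-75109558, plus strand), *Mcm6* (chr1:128359656-128359955, minus strand), *Top2a* (chr11:99024140-99024439, minus strand) and *Plk1* (chr7:122159185-122159484, plus strand) are shown. These replication and mitosis genes were all lowest in Wnt1-Ribotag muscle. Each of these promoters holds CCAAT, with TTTGGCGC in *Mcm5* and *Mcm6*, and TTTGAA in *Top2a* and *Plk1*. Capitals mark matches of the 4 motifs on either strand.
*Mcm5*: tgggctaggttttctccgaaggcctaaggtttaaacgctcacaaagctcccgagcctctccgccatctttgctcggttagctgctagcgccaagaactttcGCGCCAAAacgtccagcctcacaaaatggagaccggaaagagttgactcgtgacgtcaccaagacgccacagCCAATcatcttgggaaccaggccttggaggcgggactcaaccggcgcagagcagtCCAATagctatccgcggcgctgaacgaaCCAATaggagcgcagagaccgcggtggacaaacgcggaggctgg
*Mcm6*: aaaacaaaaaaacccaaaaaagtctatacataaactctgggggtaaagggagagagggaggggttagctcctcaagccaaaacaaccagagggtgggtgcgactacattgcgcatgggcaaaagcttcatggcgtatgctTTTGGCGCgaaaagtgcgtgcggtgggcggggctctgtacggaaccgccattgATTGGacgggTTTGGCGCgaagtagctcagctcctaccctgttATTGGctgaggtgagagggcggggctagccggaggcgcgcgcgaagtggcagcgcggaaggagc
*Top2a*: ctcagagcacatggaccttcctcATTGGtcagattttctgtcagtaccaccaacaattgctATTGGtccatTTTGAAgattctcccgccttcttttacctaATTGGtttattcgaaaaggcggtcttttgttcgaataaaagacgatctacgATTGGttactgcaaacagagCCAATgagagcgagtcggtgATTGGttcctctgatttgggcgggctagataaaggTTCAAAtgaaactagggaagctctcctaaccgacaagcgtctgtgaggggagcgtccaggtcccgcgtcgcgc
*Plk1*: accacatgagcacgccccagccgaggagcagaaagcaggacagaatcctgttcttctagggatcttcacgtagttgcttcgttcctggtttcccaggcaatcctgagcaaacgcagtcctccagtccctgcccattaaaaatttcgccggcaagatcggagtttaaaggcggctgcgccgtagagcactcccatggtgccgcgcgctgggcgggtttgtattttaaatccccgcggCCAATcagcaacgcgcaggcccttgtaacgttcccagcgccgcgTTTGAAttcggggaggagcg

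Marker lists of other cell types are given as measured, each with the gene of the highest mean RPKM over the 6 libraries, and their part in the values of the members was not tested. Of the 14 Schwann lineage markers, 11 could be tested in mutant vs. wild-type muscle and 4 were called, all lower. In Wnt1-Ribotag vs. mutant muscle 10 of 14 were called higher, and in Wnt1-Ribotag vs. wild-type muscle 0 were called. Against wild-type, all 14 were higher in Wnt1-Ribotag muscle in all 4 pairs, beside 23.3% of all genes. There 11 had an unadjusted p under 0.05, beside 19.5% of all genes. Their summed RPKM was 64.6 and 56.6 in wild-type 5 and 6, 48.3 and 26.8 in mutant 1 and 2, and 213 and 454 in Wnt1-Ribotag 1 and 2, with the highest mean over the 6 libraries in *Ngfr*. Their median RPKM was 1.96 and 1.63 in wild-type 5 and 6, 0.333 and 0.261 in mutant 1 and 2, and 10.1 and 23.7 in Wnt1-Ribotag 1 and 2. In Wnt1-Ribotag 2, *Fabp7* was the most abundant, at 134 RPKM, and in both mutant libraries it was *Erbb3*. Wnt1-Ribotag 2, with the highest sum, was also highest in *Ccnd1*, and Wnt1-Ribotag 1 in *Ccnd2*. The 12 neuron markers summed to 23.3 and 105 RPKM in wild-type 5 and 6, 16.2 and 21.2 RPKM in mutant 1 and 2, and 191 and 847 RPKM in Wnt1-Ribotag 1 and 2, led by *Gap43*, and 5 were called higher in Wnt1-Ribotag vs. mutant muscle. Muscle fiber markers (14 genes, led by *Mylpf*) summed to 3662 and 2941 RPKM in wild-type 5 and 6, 6469 and 4495 RPKM in mutant 1 and 2, and 3475 and 3198 RPKM in Wnt1-Ribotag 1 and 2. The median RPKM of the 14 was 128 and 108 in wild-type 5 and 6, 269 and 125 in mutant 1 and 2, and 181 and 159 in Wnt1-Ribotag 1 and 2, an order that the sum, in which *Mylpf* weighs most, does not show. Of these, 1 marker, *Mylpf*, was called, lower in Wnt1-Ribotag vs. mutant muscle. Liver markers (12 genes, led by *Afp*) summed to 558 and 172 RPKM in wild-type 5 and 6, 21.6 and 17.6 RPKM in mutant 1 and 2, and 296 and 226 RPKM in Wnt1-Ribotag 1 and 2, and 5 were called lower in mutant vs. wild-type and 10 of 11 higher in Wnt1-Ribotag vs. mutant muscle. *Fabp1* lay at the floor in Wnt1-Ribotag 1. Erythroid markers (15 genes, led by *Hba-a1*) summed to 14976 and 7793 RPKM in wild-type 5 and 6, 11682 and 9478 RPKM in mutant 1 and 2, and 6307 and 5838 RPKM in Wnt1-Ribotag 1 and 2. Their median RPKM gave another order, with 15.4 and 7.04 in wild-type 5 and 6, 2.69 and 1.63 in mutant 1 and 2, and 9.63 and 9.14 in Wnt1-Ribotag 1 and 2. Against mutant muscle, 8 of the 15 were higher in Wnt1-Ribotag muscle in all 4 pairs, beside 29.7% of genes, and 6 were lower, beside 24.4%. Summed RPKM of connective tissue markers (12 genes, led by *Col3a1*) was 2984 and 2948 in wild-type 5 and 6, 3119 and 2225 in mutant 1 and 2, and 2133 and 2223 in Wnt1-Ribotag 1 and 2. For macrophage markers (7 genes, led by *C1qb*) it was 115 and 100 in wild-type 5 and 6, 87.2 and 102 in mutant 1 and 2, and 66.4 and 54.1 in Wnt1-Ribotag 1 and 2. Myogenic progenitor markers (9 genes, led by *Myog*) summed to 389 and 327 RPKM in wild-type 5 and 6, 439 and 314 RPKM in mutant 1 and 2, and 259 and 273 RPKM in Wnt1-Ribotag 1 and 2. Endothelial markers (8 genes, led by *Cdh5*) summed to 55.4 and 59.5 RPKM in wild-type 5 and 6, 62.2 and 46.7 RPKM in mutant 1 and 2, and 44.6 and 42.8 RPKM in Wnt1-Ribotag 1 and 2. These sums were lowest in the Wnt1-Ribotag libraries, but the median RPKM of the myogenic progenitor markers was highest in Wnt1-Ribotag 1, at 15.6. The median of connective tissue markers in Wnt1-Ribotag 1, 34.6, also lay above mutant 1 and 2, at 32.5 and 32.2. For endothelial markers the median in Wnt1-Ribotag 2, 5.4, lay above mutant 2, at 5.07. Of these last 4 lists limma called 0 genes in each comparison. At an unadjusted p under 0.05, in the order of mutant vs. wild-type, Wnt1-Ribotag vs. wild-type and Wnt1-Ribotag vs. mutant muscle, there were 0, 7 and 5 connective tissue, 1, 5 and 2 macrophage, 0, 3 and 2 myogenic progenitor and 2, 0 and 1 endothelial markers, beside 12%, 19.5% and 19.3% of all genes. The lists with 0 calls by limma in the 2 comparisons with wild-type gave 6 and 2 muscle fiber, 7 and 2 erythroid and 6 and 8 neuron markers at that unadjusted p, and liver markers, with 0 calls in Wnt1-Ribotag vs. wild-type muscle, gave 1 there.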

How the data were processed

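The authors deposited RPKM, with a mark for genes at a floor value. The submitters' processing notes name STAR and mm9. GENCODE M21 gave symbols for 21586 of 23076 identifiers and left 1490 without; 3 entries held no value. A pseudocount of 0.5 was added before taking log2. limma 3.58.1 (lmFit, eBayes with a trend, R 4.3.3, no block) tested genes whose mean RPKM in the 4 libraries compared reached 0.5, and p-values adjusted by Benjamini-Hochberg were held against 0.05. On this scale fold changes of low genes are understated. The procedure was tested on simulated data in 2 versions, the second written after the outcome of the first was seen. How many changes were called in the Wnt1-Ribotag comparisons depended on how the simulation drew variances, so nothing is read from it about low counts. Promoters were those of RefSeq on GRCm38.p6. Values in every library are given for members past the threshold, for the 3 with the highest mean RPKM in each class, and for the 5 with the largest absolute log2 fold change without overlap in each comparison with wild-type, except that *Plk1* is given as mean and SD over the Wnt1-Ribotag libraries. Of other pathway genes, the 3 with the largest absolute log2 fold change without overlap are named for each list and comparison. Members and lists were chosen with earlier results of these data known. Alternatives were other pseudocounts, filters, scaling, variance models, libraries in the fit, a block, an adjusted p of 0.1 and leaving out each library. Leaving out members with shared exons, the alternatives for other pathway genes, and median-ratio scaling for the pairs of libraries were added after the data were seen. Calls of single erythroid markers are not reported.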

Additional observations from a re-analysis of the deposited data

How the results depend on the processing

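Genes called by limma in mutant vs. wild-type muscle (24) were 0 without the filter, 0 with all 6 libraries in a fit, 62 at an adjusted p of 0.1, and 10 to 106 with a library left out. In Wnt1-Ribotag vs. wild-type muscle (1) they were 0 without the filter, 2 with median-ratio scaling, 138 with all 6 libraries, 5 at 0.1, and 26 to 5965 with a library left out. In Wnt1-Ribotag vs. mutant muscle (171) they were 112 without the filter, 83 with quantile normalization, 679 with all 6 libraries, 414 at 0.1, and 112 to 3672 with a library left out. A lone library is assumed in such fits to vary like the other groups. Members called were 0 in mutant vs. wild-type in every setting, 0 to 33 in Wnt1-Ribotag vs. wild-type with a library left out, and, in place of 1 in Wnt1-Ribotag vs. mutant muscle, 0 without the filter, with quantile normalization and without a trend, 6 with all 6 libraries, 2 at 0.1, and 1 to 20 with a library left out. *Ccnd1* kept log2 fold changes of 2.63, 2.62 and 2.63 where its call was lost. A block by replicate number, at a correlation of 0.168, gave 842 genes and 4 members in place of 171 and 1; the numbers do not pair the libraries. The mitosis median in mutant vs. wild-type muscle was 0.26 with median-ratio scaling, and mitosis minus replication was 0.21 with quantile normalization and 0.13 to 0.22 with a library left out (0.17). With a library left out, Wnt1-Ribotag vs. wild-type medians were -0.67 to -0.47 for replication and -0.49 to -0.16 for mitosis. Mitosis minus replication (0.26) ranged there from 0.16, without wild-type 5, to 0.31, without Wnt1-Ribotag 1. In Wnt1-Ribotag vs. mutant muscle the mitosis median was -0.69 to -0.35, with the difference (0.10) from -0.03 to 0.15. Median-ratio scaling took the members above 0 in mutant vs. wild-type muscle from 24 to 36; of those with values in every library it reversed *Cdk2* (0.09), *Cdkn1a* (0.07), *Mcm5* (0.04), *Mcm6* (0.04) and *Plk1* (0.00) in mutant vs. wild-type and *Birc5* (0.04; 0.01 with quantile normalization) in Wnt1-Ribotag vs. wild-type muscle. Leaving out a library reversed *Birc5* (-0.04 to 0.41), *Cdkn1a* (-0.43 to 0.33), *Mcm5* (-0.16 to 0.00), *Mcm6* (-0.18 to 0.02) and *Pcna* (-0.03 to 0.33) in mutant vs. wild-type, *Birc5* (-0.33 to 0.26) and *Cdkn1b* (-0.04 to 0.17) in Wnt1-Ribotag vs. wild-type, and *Birc5* (-0.51 to 0.08) and *Cdkn1a* (-0.55 to 0.21) in Wnt1-Ribotag vs. mutant muscle. Without members with shared exons, an alternative chosen after the data were seen, the difference was 0.15, 0.29 and 0.17 in the 3 comparisons. Depth was ample for the members, none of which lay at the floor. The cause of these shifts was not tested.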
